A study of Mus musculus with 6 samples.

Results

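The genes described here encode collagens, proteoglycans, laminins and other proteins of the extracellular matrix, with the enzymes that cut or cross-link it and the inhibitors of those enzymes. They are a named list of 36 gene symbols among 22869 genes with a symbol, and all 36 had a row in the table. A mean of 1 FPKM (fragments counted per transcript length and scaled to library size, so that levels of genes can be compared) over the 6 libraries was reached by 16 of the 36, and 20 stayed below it. RNA came from pituitaries of females of a CD1 x C57BL/6 hybrid cross, which were 6 to 8 weeks old. The labels name no treatment. Cells were sorted by fluorescence-activated cell sorting into somatotropes, which secrete growth hormone, or lactotropes, which secrete prolactin. Each cell type has 3 libraries, titled biological replicates 1 to 3. The gate of the sort, any reporter allele and the number of animals in a replicate were not stated in the labels, and p-values therefore cover only the spread between these libraries.

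The extracellular matrix is a mesh of secreted proteins around cells. Fibrillar collagens form its fibres, while type IV collagen, laminins, nidogens and perlecan form the basement membrane, the thin sheet on which epithelial and endocrine cells rest and which surrounds capillaries. Small leucine-rich proteoglycans bind collagen fibrils, matrix metalloproteinases cut matrix proteins, and the tissue inhibitors of metalloproteinases (TIMPs) block them. In the anterior pituitary, cords of hormone cells lie against basement membranes and fenestrated capillaries, and fibroblasts, pericytes, folliculostellate cells and endothelial cells are known sources of matrix.

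Gh and Prl followed the labels. Gh was 19384 to 84909 FPKM in somatotropes and 3954 to 7623 FPKM in lactotropes. Prl was 8709 to 24481 FPKM in somatotropes and 25171 to 195325 FPKM in lactotropes. Transcripts of 5 other hormone genes summed to 7583 FPKM in somatotrope 3, with Pomc at 5758 FPKM there, and to 511 to 1684 FPKM in the other libraries. Pomc, Cga, Lhb and Fshb were highest in somatotrope 3, and Tshb in lactotrope 1. Over the tested genes, log2 levels of the replicate 1 libraries correlated with each other at r = 0.93 and with the other 4 libraries at 0.616 to 0.706. The replicate 2 libraries correlated at 0.894, while those of replicate 3 correlated at 0.782, less than somatotrope 3 did with either replicate 2 library (0.854 and 0.848). Both replicate 1 libraries lay above the other 4 for 57.7% of the tested genes. In lactotrope 3, 14.9% of the tested genes were at 0, where the other 5 libraries had 0.232% to 2.95%. A 0 there is therefore given as a listed value and need not mean absence. The depth behind the values is unknown. In such bulk RNA, fewer cells of a type and less RNA per cell cannot be told apart.

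Matrix transcripts were a small part of each library. The summed level of the 36 genes was 99.7, 185 and 198 FPKM in somatotropes 1 to 3 and 167, 184 and 96.1 FPKM in lactotropes 1 to 3, between 0.0322% and 0.0949% of the FPKM sum over all genes. Gh and Prl weigh on that share, and without them it was 0.0466% to 0.133%. The 6 most abundant genes, Timp2, Col1a2, Timp3, Sparc, Mmp14 and Dcn, held between 69.5% and 85.9% of the matrix sum in every library. The leading gene differed: Col1a2 in both replicate 1 libraries, Timp3 in somatotrope 2, Dcn in somatotrope 3, Timp2 in lactotrope 2 and Sparc in lactotrope 3. At the other end, 14 genes stayed under 1 FPKM in all 6 libraries, and 6 others had a mean below 1 but reached it in at least 1 library. The genes nearest the limit were Col4a1 at a mean of 1.33 FPKM just above it and Lum at 0.792 FPKM just below. Of the 36 genes, lactotrope 3 listed 14 at 0 and the other libraries 1 to 5.

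**Figure D1:**
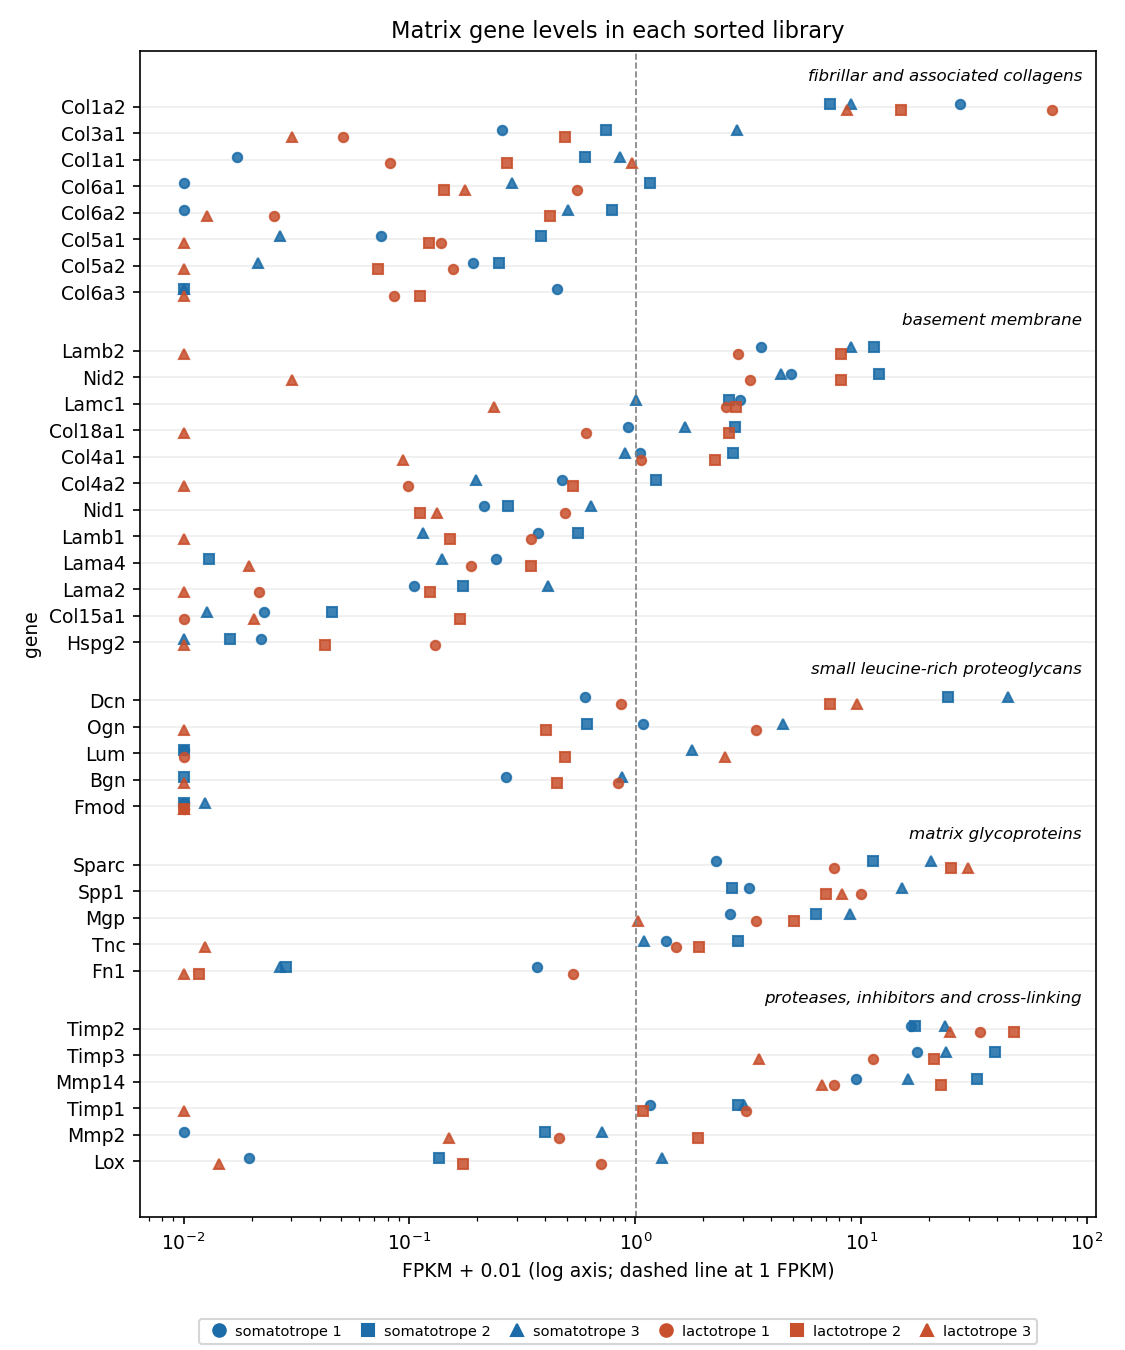
Level of each of the 36 matrix genes in each of the 6 libraries, as FPKM + 0.01 on a log axis, grouped by role, with colour for cell type and symbol shape for replicate number; the dashed line is at 1 FPKM. Col1a2 lies far to the right of all other fibrillar collagens, and the points of lactotrope 3 are often furthest to the left.

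Of the 8 fibrillar and associated collagens, only Col1a2 reached a mean of 1 FPKM. Col1a1 and Col1a2 encode the chains that assemble together into type I collagen, the main fibre of connective tissue. Col1a2 was at 27.4, 7.26 and 9.0 FPKM in somatotropes 1 to 3, against 70.1, 15.0 and 8.62 FPKM in lactotropes 1 to 3. Its mean of 22.9 FPKM exceeded that of 88.0% of tested genes. Col1a1 was at 0.00720, 0.589 and 0.843 FPKM in somatotropes, against 0.0724, 0.261 and 0.959 FPKM in lactotropes. The 2 genes of this one fibre therefore lay far apart in every library. They went opposite ways in replicate 1: Col1a2 was highest and Col1a1 lowest in the replicate 1 libraries of both cell types. In somatotropes both genes were higher in replicate 3 than in replicate 2. Both have a single row, Col1a2 at chr6:4455697-4491543 and Col1a1 at chr11:94797584-94813170, both on the plus strand in mm9, and no other gene of the table overlaps either.

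The other fibrillar genes were low. Col3a1, the type III chain, was at 0.246, 0.729 and 2.82 FPKM in somatotropes, against 0.0407, 0.479 and 0.0202 FPKM in lactotropes, so somatotrope 3 alone passed 1 FPKM. Col5a1 and Col5a2, the type V chains that nucleate fibrils, had means of 0.116 and 0.106 FPKM. Col6a1, Col6a2 and Col6a3, which encode the chains of beaded type VI collagen, had means of 0.378, 0.283 and 0.103 FPKM, and the highest value among them was 1.15 FPKM, that of Col6a1 in somatotrope 2. Some of these genes are neighbours: Col3a1 and Col5a2 lie 24.6 kb apart on chromosome 1 and Col6a2 and Col6a1 85.4 kb apart on chromosome 10, with no gene of the table between them.

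The stretches before the RefSeq start sites of 3 genes are shown in GRCm38.p6, 5′ to 3′ in the gene's direction. They were chosen after their values were seen among the genes with a RefSeq window: Col1a2 as the abundant fibrillar collagen, Col3a1 as a fibrillar collagen with a mean below 1 FPKM, and Mmp14 as an abundant protease. Capitals mark every match, on either strand, to the CCAAT box (letters CCAAT), to a TATA box (letters TATAAA), to a GC box (letters GGGCGG) or to an AP-1 site (letters TGAGTCA).
Col1a2, chr6:4505368-4505492, plus strand, ending 125 bases before the start because exons are annotated after that: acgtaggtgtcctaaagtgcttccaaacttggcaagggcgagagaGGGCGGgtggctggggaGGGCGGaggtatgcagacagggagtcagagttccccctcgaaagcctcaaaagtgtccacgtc
Col3a1, chr1:45311288-45311537, plus strand, the 250 bases before the start: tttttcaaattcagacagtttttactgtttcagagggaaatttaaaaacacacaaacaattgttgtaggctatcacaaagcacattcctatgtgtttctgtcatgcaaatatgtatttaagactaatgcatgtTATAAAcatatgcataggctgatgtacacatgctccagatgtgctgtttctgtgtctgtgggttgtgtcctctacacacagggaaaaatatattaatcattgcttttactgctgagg
Mmp14, chr14:54431348-54431597, plus strand, the 250 bases before the start: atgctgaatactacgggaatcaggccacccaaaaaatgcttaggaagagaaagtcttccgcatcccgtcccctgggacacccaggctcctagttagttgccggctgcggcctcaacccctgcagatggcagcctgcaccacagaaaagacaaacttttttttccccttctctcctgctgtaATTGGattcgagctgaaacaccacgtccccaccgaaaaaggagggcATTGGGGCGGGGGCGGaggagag
The Col1a2 stretch held GGGCGG at 205 and 188 bases before the start and had 59.2% G and C. The Col3a1 stretch held TATAAA at 117 bases before the start and had 35.2% G and C, against a median of 52.4% over the 32851 RefSeq windows of 250 bases. Mmp14 had CCAAT on the minus strand at 69 and 23 bases before the start and GGGCGG at 19 and 13, where the nearer CCAAT match shares its last base with the first GGGCGG match. Of all windows, 33.8% held CCAAT, 12.4% TATAAA, 32.7% GGGCGG and 4.46% TGAGTCA, and of the 29 windows of the 25 matrix genes found, 10, 5, 16 and 1 did. These matches describe the letters only.

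Among 12 genes of the basement membrane, 5 reached a mean of 1 FPKM: Lamb2, Nid2, Lamc1, Col18a1 and Col4a1. Lamb2, a laminin beta chain, was at 3.59, 11.4 and 8.97 FPKM in somatotropes, against 2.85, 8.14 and a listed 0 in lactotropes. Nid2, which encodes nidogen-2, a linker between laminin and type IV collagen, was at 4.86, 11.9 and 4.40 FPKM in somatotropes, against 3.20, 8.14 and 0.0202 FPKM in lactotropes. Both genes were highest in replicate 2 of each cell type, and their groups overlapped. Nid2 shares 386 bases with 2700060E02Rik on the opposite strand, which had a mean of 11.03 FPKM, so reads of the pair may not be told apart. Lamc1, a laminin gamma chain, was at 2.90, 2.59 and 0.998 FPKM in somatotropes, against 2.50, 2.78 and 0.227 FPKM in lactotropes, with replicates 1 and 2 close together in both cell types.

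A laminin joins an alpha, a beta and a gamma chain. The alpha chains on the list, Lama2 and Lama4, had means of 0.131 and 0.148 FPKM, and the other beta chain, Lamb1, 0.248 FPKM. Of the remaining alpha chains, Lama5 was at 1.31, 1.79 and 0.775 FPKM in somatotropes, against 0.593, 1.45 and 0.119 FPKM in lactotropes. It was named after its values were seen. Nid1 had a mean of 0.299 FPKM, against 5.43 FPKM for Nid2, and Hspg2, which encodes perlecan, had 0.0284 FPKM.

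Col4a1 and Col4a2 encode the main chains of type IV collagen and are transcribed away from each other on chromosome 8, with 2 bases between the genes in the table. Col4a1 was at 1.04, 2.68 and 0.888 FPKM in somatotropes, against 1.05, 2.25 and 0.0842 FPKM in lactotropes. Col4a2 was at 0.463, 1.22 and 0.186 FPKM in somatotropes, against 0.0882, 0.519 and a listed 0 in lactotropes, below Col4a1 in all 6 libraries. Both were highest in replicate 2 of each cell type. Col18a1, whose product carries endostatin, was at 0.922, 2.77 and 1.65 FPKM in somatotropes, against 0.596, 2.60 and a listed 0 in lactotropes, and its relative Col15a1 had a mean of 0.0366 FPKM.

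Of the 5 small leucine-rich proteoglycans, decorin (Dcn) and Ogn, which encodes osteoglycin, reached a mean of 1 FPKM. Dcn was at 0.591, 24.2 and 44.6 FPKM in somatotropes 1 to 3, against 0.854, 7.30 and 9.56 FPKM in lactotropes 1 to 3. It was under 1 FPKM in both replicate 1 libraries and well above it in the other 4. Ogn was at 1.08, 0.602 and 4.48 FPKM in somatotropes, against 3.42, 0.393 and a listed 0 in lactotropes, so no cell type or number was high throughout. Ogn lies inside Cenpp on the opposite strand, which had a mean of 1.39 FPKM. Lum, which encodes lumican and lies 47.3 kb from Dcn with no gene of the table between, reached 1 FPKM in both replicate 3 libraries, at 1.78 and 2.49 FPKM. It was listed at 0 in somatotropes 1 and 2, although Dcn was at 24.2 FPKM in the latter. Bgn (biglycan) had a mean of 0.399 FPKM, and Fmod (fibromodulin) was listed at 0 in all libraries except somatotrope 3, at 0.00250 FPKM.

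Among matrix glycoproteins, Sparc, Spp1, Mgp and Tnc reached a mean of 1 FPKM and fibronectin (Fn1) did not, at 0.152 FPKM. Sparc, which encodes a collagen-binding glycoprotein, was at 2.26, 11.3 and 20.4 FPKM in somatotropes, against 7.55, 25.0 and 29.6 FPKM in lactotropes. Its replicate 1 value was the lowest and its replicate 3 value the highest in each cell type. Spp1, which encodes osteopontin, was at 3.17, 2.66 and 15.2 FPKM in somatotropes, against 9.96, 7.0 and 8.25 FPKM in lactotropes. Mgp, which encodes matrix Gla protein, an inhibitor of calcification, was at 2.63, 6.30 and 8.90 FPKM in somatotropes, against 3.41, 5.04 and 1.02 FPKM in lactotropes. Spp1 and Mgp each spanned a wide range in somatotropes and overlapped between cell types. Tnc, which encodes tenascin-C, was at 1.36, 2.85 and 1.08 FPKM in somatotropes, against 1.51, 1.90 and 0.0025 FPKM in lactotropes.

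The inhibitors and one protease were among the most abundant matrix transcripts. Timp2 was at 16.6, 17.3 and 23.4 FPKM in somatotropes, against 33.5, 47.6 and 24.6 FPKM in lactotropes, so every lactotrope library lay above every somatotrope library, by a small step in replicate 3. Timp3, whose product stays bound to the matrix, was at 17.7, 39.2 and 23.8 FPKM in somatotropes, against 11.3, 21.0 and 3.53 FPKM in lactotropes, and only lactotrope 2 lay above a somatotrope library. Mmp14, a membrane-anchored metalloproteinase, was at 9.45, 32.6 and 16.1 FPKM in somatotropes, against 7.58, 22.7 and 6.68 FPKM in lactotropes, highest in replicate 2 of both. TIMP-2 and the Mmp14 product are known to act together in activating the protease encoded by Mmp2. Mmp2 itself had a mean of 0.593 FPKM and reached 1 FPKM in lactotrope 2 alone, at 1.88 FPKM. Timp1 was at 1.16, 2.83 and 3.03 FPKM in somatotropes, against 3.07, 1.08 and a listed 0 in lactotropes. Timp1 lies inside Syn1 and Timp3 inside Syn3, both on the opposite strand. Syn1 had a mean of 6.21 FPKM, above that of Timp1, and Syn3 one of 0.462 FPKM. Lox, a cross-linking enzyme of collagen, had a mean of 0.382 FPKM and passed 1 FPKM in somatotrope 3 alone, at 1.30 FPKM.

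Among these genes the longer transcripts tended to have the lower levels. Spearman's rho between transcript length and mean FPKM was -0.529 over the 36 genes, which share the same 6 libraries, against -0.306 over 11433 tested genes with a length and 0.219 over 22209 genes with a symbol and a length. The median length was 4216 bases for the 16 genes that reached 1 FPKM and 5857 bases for the 20 that did not. Col1a2 at 5348 bases and Col1a1 at 5930 bases are alike in length.

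The comparison of cell types asked which matrix genes differed between somatotropes and lactotropes. Timp3, Lamb2, Nid2 and Dcn had the largest mean differences toward somatotropes and Sparc, Timp2 and Col1a2 the largest toward lactotropes, but none of the 16 tested genes passed. Timp3 averaged 26.9 ± 11.1 FPKM over the somatotrope libraries and 11.9 ± 8.75 FPKM over the lactotrope ones (SD, n = 3), a ratio of means of 2.26, and its somatotrope library was the higher in each of the 3 same-numbered pairs. Timp2 averaged 19.1 ± 3.73 FPKM over the somatotrope libraries and 35.2 ± 11.6 FPKM over the lactotrope ones (SD, n = 3), a ratio of means of 1.85 toward lactotropes. It was the only gene of the 16 whose groups did not overlap, where 1.15% of tested genes lay that way and 2.51% lay wholly higher in somatotropes. Sparc averaged 11.3 ± 9.09 FPKM over the somatotrope libraries and 20.7 ± 11.6 FPKM over the lactotrope ones (SD, n = 3), and like Timp2 it was higher in lactotropes in all 3 pairs.

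By limma, 0 of the 16 genes and 0% of the 11642 tested genes passed at an adjusted p of 0.05, and 0 of the 16 and 0.962% of all had an unadjusted p under 0.05. On the log2(FPKM + 1) scale, somatotrope minus lactotrope, the difference was 1.31 (SE 0.68) for Timp3, -0.82 (SE 0.55) for Timp2 and -0.99 (SE 0.78) for Sparc, each with a limma adjusted p of 1.00. With the replicate number as a block, again 0 passed, with adjusted p = 0.337 for Timp3, 0.347 for Sparc and 0.425 for Timp2 by limma. At an unadjusted p under 0.05 the block gave 5 of the 16, where it gave 10.9% of all tested genes: Timp3, Dcn and Nid2 toward somatotropes and Sparc and Timp2 toward lactotropes. The 95% intervals with the block ran from 0.41 to 2.22 for Timp3, from -1.72 to -0.27 for Sparc and from -1.56 to -0.07 for Timp2, before any adjustment.

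**Figure D2:**
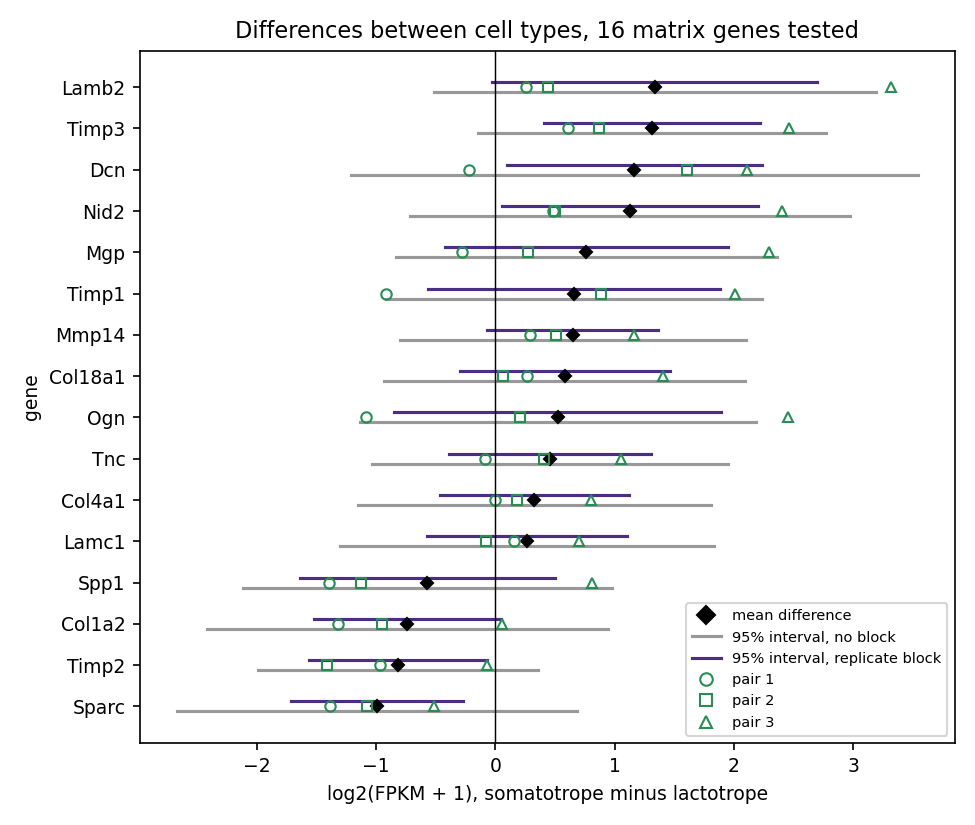
Difference in log2(FPKM + 1), somatotrope minus lactotrope, for the 16 tested matrix genes, with the mean (black diamond), the 95% interval of limma without a block (grey) and with the replicate number as a block (purple), and the 3 same-numbered pairs (green). The pair 3 triangle is the highest of the 3 pairs in all genes shown.

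Over the 16 genes the median difference was 0.552, against 0.179 over all tested genes. Of the 16, 12 lay above 0 and 4 below, where 64.8% of all tested genes lay above 0. The 4 below 0 were Sparc, Timp2, Col1a2 and Spp1. In all 3 pairs, 5 of the 16 were higher in somatotropes (Col18a1, Lamb2, Nid2, Timp3 and Mmp14), where 22.9% of tested genes were, and Sparc and Timp2 were higher in lactotropes, where 11.2% of tested genes were. The median moved with the pair: it was -0.155, 0.237 and 1.28 in pairs 1 to 3, against 0.00254, 0.118 and 0.363 over all tested genes. In pair 1, 10 of the 16 were higher in the lactotrope library, and in pair 3, 14 were higher in the somatotrope library. The share of all tested genes was not counted for single pairs. Without lactotrope 3, which listed 4 of these 16 genes at 0, the median was 0.116. Without lactotrope 1, the difference of Col1a2 went from -0.74 to 0.10. That of Dcn, 1.16 over all libraries, was 0.215 without somatotrope 3, and that of Sparc was -0.223 without somatotrope 1. Without lactotrope 3, Timp3 had a difference of 0.692, Lamb2 one of 0.48 in place of 1.34, and Nid2 one of 0.26 in place of 1.13.

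By replicate number, 5 of the 16 genes differed, in several directions, where 46.7% of all tested genes did. Dcn had a mean over both cell types of 0.722 FPKM in replicate 1, 15.8 in replicate 2 and 27.1 in replicate 3, and Sparc one of 4.90, 18.1 and 25.0 FPKM. Col1a2 ran the other way, at 48.8, 11.1 and 8.81 FPKM. Mmp14, at 8.52, 27.6 and 11.4 FPKM, and Nid2, at 4.03, 10.04 and 2.21 FPKM, stood highest in replicate 2. The titles do not say what a replicate number shares, such as a day or a sort.

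**Figure D3:**
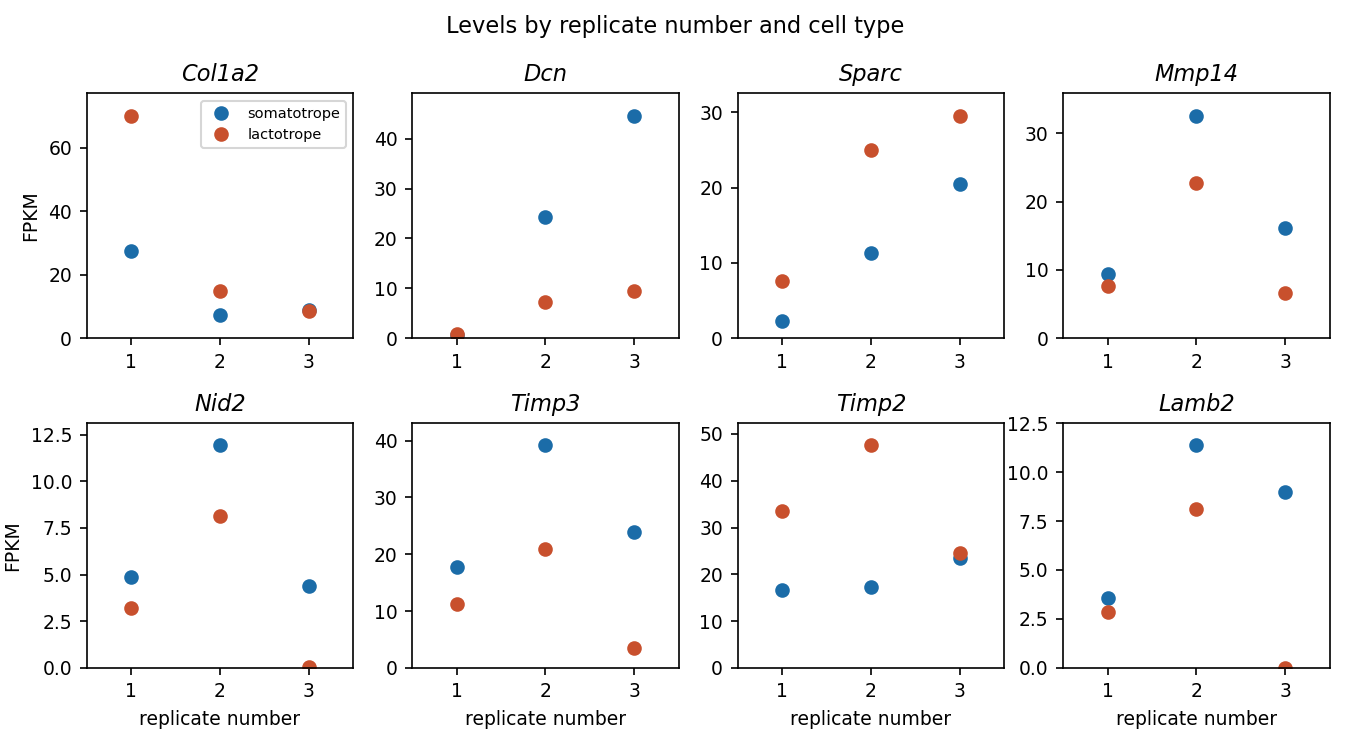
FPKM of 8 matrix genes by replicate number, 1 point per library, with somatotropes in blue and lactotropes in orange; each panel starts at 0. In Dcn and Sparc both replicate 1 points lie below the other 4, in Col1a2 both lie above them, and in Timp2 every lactotrope point lies above every somatotrope point.

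The calls are those of limma's F test over the 3 replicate numbers, with cell type in the model, at an adjusted p of 0.05. The limma adjusted p was 0.00639 for Dcn, 0.00805 for Sparc, 0.00990 for Col1a2, 0.0229 for Mmp14 and 0.0356 for Nid2. On the log2(FPKM + 1) scale Dcn was 3.08 higher in replicate 2 than in 1 and 3.68 higher in replicate 3 than in 1. For Sparc these differences were 1.76 and 2.28, for Mmp14 1.57 and 0.28, for Nid2 1.13 and -1.08, and for Col1a2 -1.97 and -2.20. The level of all genes moved between the numbers as well, with a median over all tested genes of -0.865 for replicate 2 minus 1 and -1.14 for replicate 3 minus 1. Relative to that shift Dcn, Sparc and Mmp14 stood further up, and Col1a2 stood lower by less.

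After median-ratio scaling, which takes out most of that shift (medians of -0.0497 and -0.148), 9.09% of all tested genes passed, and of the 16 Dcn (limma adjusted p = 0.00610), Sparc (0.00384) and Mmp14 (0.0150) did. Col1a2 then differed by -1.01 and -0.97 with a limma adjusted p of 0.142, and Nid2 by 1.90 and -0.35 with 0.0919. Under quantile normalization 16.9% of all tested genes passed, and of the 16 Dcn, Sparc, Mmp14, Nid2 and Timp3. The difference of Nid2 between replicates 3 and 1 then turned to 0.35, and Col1a2 had a limma adjusted p of 0.0597. Dcn, Sparc, Mmp14 and Col1a2 kept the sign of both differences under both scalings. Without somatotrope 1 none of the 16 passed, where 0.112% of all tested genes did, and without lactotrope 1 Dcn alone did (limma adjusted p = 0.0341), where 1.55% did. Without somatotrope 2 or without lactotrope 2, 3 of the 16 passed, against 25.2% and 25.9% of all. Without somatotrope 3, 14 passed, against 73.3% of all, and without lactotrope 3, 10 passed, against 63.7%. In these fits the number concerned keeps 1 library, taken to vary like the others. With all libraries, 3 of the 16 passed with a pseudocount of 0.1, against 18.1% of all tested genes, and 3 without the term for cell type, against 34.4%.

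**Figure D4:**
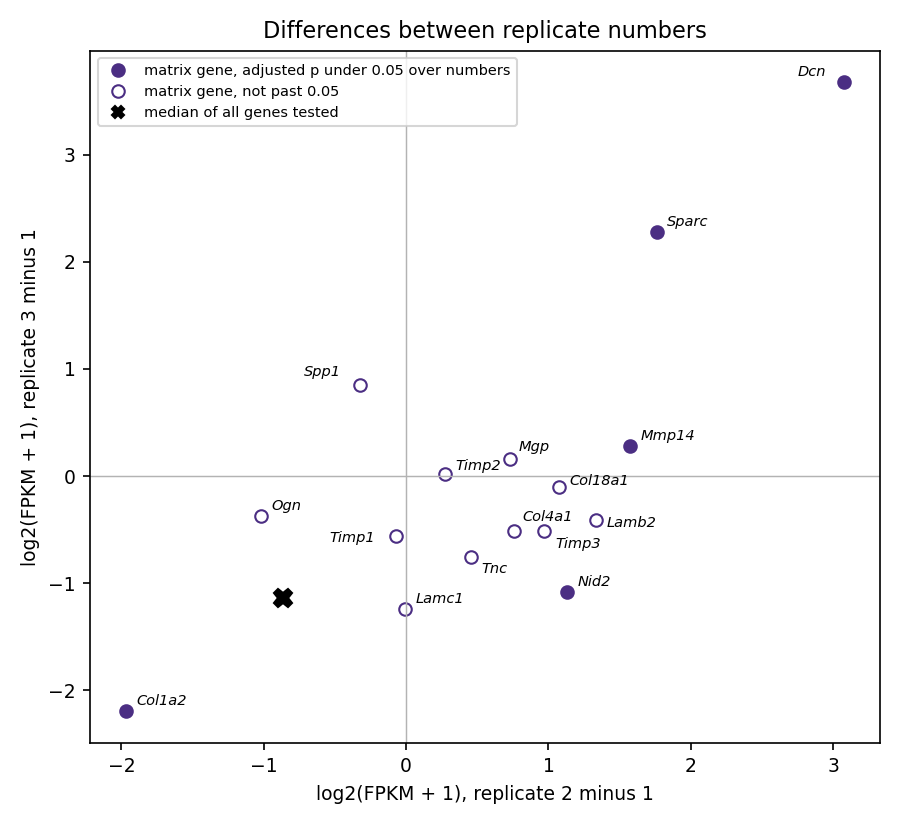
Difference in log2(FPKM + 1) for replicate 2 minus 1 (horizontal axis) and replicate 3 minus 1 (vertical axis) for the 16 tested matrix genes, filled where limma's adjusted p over the 3 numbers is under 0.05, with the median of all tested genes as a black cross. Dcn and Sparc lie up and to the right, Col1a2 down and to the left, and the median of all genes lies at -0.865 and -1.14.

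Both replicate 1 libraries lay above the other 4 for 1 of the 16 genes, Col1a2, where 57.7% of tested genes did, and below the other 4 for Dcn and Sparc, where 4.49% of tested genes did. Over the 16 genes the median of replicate 2 minus 1 was 0.745, with 11 above 0 and 5 below, where 21.8% of all tested genes were above 0. For replicate 3 minus 1 it was -0.393, with 6 above 0 and 10 below, where 14% of all tested genes were above 0. That median turned to 0.282 under median-ratio scaling, with 11 above 0 and 5 below, and to 0.737 under quantile normalization, with 15 above 0 and 1 below, where 44.4% and 48.4% of all tested genes were above 0.

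Markers of other cells shared a part, but not all, of the pattern of some of these genes over the libraries. Of 8 fibroblast markers with a row, 2 reached a mean of 1 FPKM, Gsn and Dpp4. Gsn, a gene that many cell types express, was at 3.64 to 35.9 FPKM and Dpp4 at 0 to 4.65 FPKM. Pdgfra was at most 0.126 FPKM, Dpt at most 0.485 FPKM and Twist2 at most 0.394 FPKM in any library. The summed level of the 8 was 5.27, 43.7 and 30.9 FPKM in somatotropes 1 to 3 and 8.47, 29.0 and 8.76 FPKM in lactotropes 1 to 3. Most of that sum was Gsn. The other 7 summed to 1.63, 7.85 and 6.99 FPKM in the somatotrope libraries and to 1.44, 2.50 and 0.315 FPKM in the lactotrope ones. Among somatotropes this sum, Dcn and Sparc were all lowest in replicate 1. Among lactotropes the sum was lowest in replicate 3, and Dcn and Sparc were lowest in replicate 1. Pi16, a marker of adventitial fibroblasts, was at 1.87 and 2.84 FPKM in somatotropes 2 and 3 and at most 0.189 FPKM elsewhere. Clec3b was at 0.742 and 0.783 FPKM in somatotropes 2 and 3 and listed at 0 elsewhere. Tcf21 was at 1.35 FPKM in somatotrope 3 and at most 0.162 FPKM elsewhere. No endothelial marker of 12 reached a mean of 1 FPKM, their sum was 1.72 to 4.14 FPKM in somatotropes and 0 to 5.01 FPKM in lactotropes, and all 12 were listed at 0 in lactotrope 3. Of 10 mural markers only Tagln reached it, with Des at most 0.00840 FPKM, and their sum was 4.73 to 9.51 FPKM in somatotropes and 1.73 to 4.64 FPKM in lactotropes.

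The macrophage and leukocyte markers, 11 of 11 tested, summed to 72.7, 1164 and 722 FPKM in somatotropes 1 to 3 and 304, 3429 and 1664 FPKM in lactotropes 1 to 3, with none listed at 0. Like Sparc, the sum was lowest in replicate 1 of each cell type, as were 10 of the 11 markers, and all 11 were higher in lactotropes in each pair. Unlike Sparc, which was highest in replicate 3 of each cell type, the sum was highest in replicate 2. The stem and folliculostellate markers summed to 332, 2713 and 1346 FPKM in somatotropes and 185, 857 and 170 FPKM in lactotropes, with S100b and Aldh1a1 listed at 0 and Sox2 at 0.0041 FPKM in lactotrope 3. Like Timp3, Mmp14, Nid2, Lamb2 and Col18a1, that sum was highest in replicate 2 and higher in somatotropes in each pair. Mia1 and Aldoc led it. Of the 10 markers, 7 were highest in replicate 2 of both cell types and 8 were higher in somatotropes in each pair, with S100b and Lcn2 the exceptions to the latter. Erythroid markers summed to 4259 and 3529 FPKM in replicate 3 and to 5.33 to 325 FPKM in the other 4 libraries, and Dcn and Sparc were highest in replicate 3 too. The part of these cells in the values of the matrix genes was not tested.

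The rest of the matrix pathway was read from the same fits, in lists of genes that are not among the 36. For comparison with each list, the median difference over all tested genes was 0.179, and 64.8% of them lay above 0. Of 17 genes of collagen synthesis, 16 were tested and 0 passed between cell types, with 12 above 0 and 4 below and a median of 0.239. P4hb and Ppib, which serve the folding of many secreted proteins, were the most abundant of them, with means of 171 and 49.5 FPKM, followed by Serpinh1, the collagen chaperone, at 37.1 FPKM. Pcolce, an enhancer of procollagen cleavage, had the smallest p, at 7.51, 6.35 and 4.22 FPKM in somatotropes and 1.55, 0.851 and 2.70 FPKM in lactotropes. Its groups did not overlap, where 2.51% of all tested genes lay wholly higher in somatotropes. Its log2 difference was 1.41 (SE 0.69, limma adjusted p = 1.00, and 0.337 with the block).

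Of 22 other collagen genes, 5 were tested and 0 passed, with a median of 0.224. The highest were Col14a1, Col11a1 and Col16a1, with means of 1.84, 1.64 and 1.46 FPKM, all below the 22.9 FPKM of Col1a2. Of 33 other matrix proteins, 15 were tested and 0 passed, with 12 above 0, 3 below and a median of 0.465. Efemp1, Prelp and Efemp2 led with means of 25.0, 16.6 and 10.8 FPKM, and Fbln5, an elastic fibre protein, had the smallest p, with a log2 difference of 1.52 (SE 0.72, limma adjusted p = 1.00, and 0.259 with the block). Of 23 matrix receptors, 14 were tested and 0 passed, with 8 above 0, 6 below and a median of 0.0882. Itgb5, Itgb1 and Sdc2 led, with means of 45.9, 44.0 and 41.4 FPKM. Of 20 other proteases and inhibitors, 8 were tested and 0 passed, with 7 above 0, 1 below and a median of 0.391. Plat, which encodes tissue plasminogen activator, had the smallest p there, at 40.3, 328 and 108 FPKM in somatotropes and 23.2, 137 and 11.3 FPKM in lactotropes, and a log2 difference of 1.72 (SE 0.90, limma adjusted p = 1.00, and 0.282 with the block). At an unadjusted p under 0.05 none of these 5 lists held a gene without the block. With it they held 11 of 58 tested genes toward somatotropes, where 7.17% of all tested genes lay, and 3, all matrix receptors, toward lactotropes, where 3.75% lay.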

How the data were processed

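RNA of 6 sorted pituitary libraries was sequenced. The authors deposited FPKM values in 1 table of 30399 transcript rows, scaled before deposit per transcript length and per library. The submitters' processing notes name bcl2fastq 2.17.1.14, TopHat, edgeR and the build mm9. How fragments were counted, and whether strand was used, is not stated there or in the labels. FPKM keeps no depth, so no count test was run. The 889 rows without a symbol were left out; where a gene (of 22869) had several rows, the one of highest mean was used. Tests ran on log2(FPKM + 1), which understates the change of low genes, for the 11642 genes whose mean reached 1 FPKM.

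Somatotropes were compared with lactotropes by limma 3.58.1 (R 4.3.3, intensity trend, no block), and the 3 replicate numbers by its F test with cell type in the model. P-values were adjusted by Benjamini-Hochberg over all tested genes, at a threshold of 0.05. Libraries that share a number in their titles also shared deviations from their cell type's mean: over genes, r was 0.763 for number 1, 0.613 for number 2 and 0.341 for number 3. The numbers were therefore taken to pair the libraries, least clearly for number 3, as somatotrope 3 and lactotrope 2 had r = 0.233. The fit without the block stayed the main one, and a fit with the number as a block is given beside its main results. The median residual SD was 0.868 without the block and 0.394 with it. The code was tested on simulated data, in which libraries of a number shared no deviations when cell types were compared. That test therefore cannot show how the fit without the block behaves on data like these. The members and all lists were chosen with earlier results of these data known. Members with a mean of at least 1 FPKM are described in full, and each other list gives up to 3 genes by smallest p and 3 by highest mean. Alternatives were other pseudocounts, filters, scalings, row sums, variance settings, library weights and left-out libraries. Promoter sequences are RefSeq's for GRCm38.p6, found by symbol for 25 of 36 genes. Gene coordinates are those of the table (mm9). Transcript lengths are from GENCODE M21.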

Additional observations from a re-analysis of the deposited data

How the results depend on the processing

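Between cell types, 0 of the matrix genes and of the 5 other matrix lists passed under every alternative run. The count over all genes was 0, except 3 without somatotrope 1 (0 to 3 with 1 library left out), 9 with array weights and 43 with the replicate block and array weights, where replicate 3 had a weight of 0.469 against 1.43 and 1.49. The replicate block gave 0 as well, with a limma adjusted p of 0.337 or larger for the matrix genes, and changed no other call. The median difference of the matrix genes ran from 0.116 to 0.757 with 1 library left out. Of 297 differences of single genes under alternatives 13 turned sign: Lamc1 (-0.261 to 0.563 with 1 library left out, -0.0457 under quantile normalization, -0.241 with array weights), Ogn (-0.0065 to 1.16 with 1 library left out, -0.0312 with block and weights, -0.443 with replicates 1 and 2 only), Col1a2 (-1.34 to 0.0983, the latter without lactotrope 1), Col4a1 (-0.0902 to 0.702 with 1 library left out, -0.0925 with array weights), Tnc (-0.0189 to 0.746 with 1 library left out), Col18a1 (-0.0188 with array weights), and Timp1 (-0.0164) and Mgp (-0.00443) with replicates 1 and 2 only. The settings with replicates 2 and 3 or 1 and 2 only were chosen after seeing the data.

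Over replicate numbers, 5433 genes and 5 matrix genes passed. With a pseudocount of 0.1 these were 2109 and 3, with no filter 0 and 0 (6362 genes at an unadjusted p under 0.05), with median-ratio scaling 1058 and 3, and with no term for cell type 4007 and 3. A minimum mean of 5 FPKM left 3293 genes past it, from fewer tested, and under quantile normalization 1967. With 1 library left out the counts ran from 13 to 8528 genes and from 0 to 14 matrix genes. The cause was not tested. A mean of at least 2 FPKM was reached by 10 of the 36 genes. Unknown depth limits the low values most, and 3 libraries a group limit the precision.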

Other observations

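Both replicate 1 libraries lay above the other 4 for 8 of 16 tested genes of collagen synthesis, no larger a share than the 57.7% of all tested genes. Col1a2 lay so too. Plod2 and P4hb, of which Plod2 was chosen after its values were seen, are given as a description. Plod2, a lysyl hydroxylase of collagen, was at 37.5, 3.53 and 4.58 FPKM in somatotropes 1 to 3, against 40.9, 2.88 and 2.61 FPKM in lactotropes 1 to 3. P4hb, a subunit of prolyl hydroxylase, was at 402, 63.9 and 89.1 FPKM in somatotropes, against 330, 64.2 and 78.0 FPKM in lactotropes. On the log2(FPKM + 1) scale replicate 2 minus 1 was -3.26 for Plod2 and -2.49 for P4hb, against a median of -0.865 over all genes, and after median-ratio scaling it was -2.33 and -1.5. Before that scaling it was above 0 for Fkbp10 (1.64), Loxl1 (0.815), Bmp1 (0.483), Serpinh1 (0.478) and Plod1 (0.197). The other tested genes of collagen synthesis lay below 0.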
